A study of Mus musculus with 7 samples.

Results

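The star strands are the less used products of microRNA (miRNA) hairpins, named with an asterisk in the older miRNA nomenclature. Of 517 mouse miRNA assays on the panel, 110 carried the asterisk. The 13 whose numbers belong to the large imprinted miRNA cluster were set aside by number, which left 97 star strands, and the main strand of the same name was assayed for 81 of these. The rule for this choice used assay names and no measured value, but it was set with earlier results of these data known.

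The panel was a set of quantitative PCR assays run on total RNA of 3 cultures of M1 macrophages and 4 aortas, which the labels call biological replicates. The macrophages were grown from bone marrow of C57BL/6 female mice aged 6 to 8 weeks by 7 days of culture in medium conditioned by L929 cells, and were then given lipopolysaccharide at 100 ng/ml for 14 hours and interferon-γ at 10 ng/ml for 6 hours. The aortas came from untreated control female mice aged 6 to 8 weeks whose strain label is apoE-/-, although the series title calls these vessels normal. Strain and sample type therefore cannot be told apart, and no unstimulated macrophages were analysed here. Each well is given as its cycle threshold (Ct), which is reached earlier the more target there is. Wells were counted as detected up to Ct 35.

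A miRNA hairpin is cut by Drosha in the nucleus and by Dicer in the cytoplasm, which leaves a short duplex with a strand from each arm of the hairpin. An Argonaute protein usually keeps one strand, the main or guide strand, and the star strand is released and degraded, although some hairpins load both. Argonaute prefers the strand whose 5′ end is less tightly paired and often one that begins with U or A. Bases 2 to 8, the seed, set which messenger RNAs a loaded strand pairs with.

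The sequences below belong to hairpins whose strand gap differed between M1 macrophages and aortas, chosen to show shared seeds, linked hairpins and both directions, with the main strand beside the star strand for let-7a, miR-30a, miR-7a and miR-17. They are RefSeq mature sequences on GRCm38.p6, written 5′ to 3′, with the seed in capitals.
let-7a*: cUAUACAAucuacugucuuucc
let-7b*: cUAUACAAccuacugccuuccc
let-7f*: cUAUACAAucuauugccuuccc
let-7a: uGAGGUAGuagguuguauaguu
miR-30a*: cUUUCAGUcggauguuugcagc
miR-30e*: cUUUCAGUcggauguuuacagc
miR-30a: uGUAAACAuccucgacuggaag
miR-503*: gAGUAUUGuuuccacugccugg
miR-322*: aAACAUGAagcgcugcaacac
miR-7a*: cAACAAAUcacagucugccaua
miR-7a: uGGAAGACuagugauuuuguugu
miR-877*: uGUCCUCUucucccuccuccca
miR-150*: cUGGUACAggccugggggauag
miR-17*: aCUGCAGUgagggcacuuguag
miR-17: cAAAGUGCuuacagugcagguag

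The let-7a, let-7b and let-7f star strands share the seed UAUACAA, and the miR-30a and miR-30e star strands share UUUCAGU. The let-7a* sequence lies at chr13:48538188-48538209 on the minus strand, let-7f* at chr13:48537833-48537854 on the minus strand and let-7b* at chr15:85707379-85707400 on the plus strand. The let-7a* sequence is made by 2 hairpins of the table, so its assay may read both, and the main strands of miR-7a, let-7f, miR-16 and miR-29b likewise come from 2 hairpins each. The miR-30a* sequence lies at chr1:23272315-23272336 (plus strand) and miR-30e* at chr4:120772618-120772639 (minus strand), within the span of Nfyc. The miR-503* and miR-322* sequences lie at chrX:53053987-53054008 and chrX:53054269-53054289 on the minus strand, within the span of the noncoding gene C430049B03Rik. The miR-7a* sequence is at chr13:58392800-58392821 (minus strand) within the span of Hnrnpk, and miR-877* is at chr17:35960731-35960752 (minus strand) within the span of Abcf1. The miR-150* sequence is at chr7:45121798-45121819 and miR-17* at chr14:115043721-115043742, both on the plus strand. Whether these positions are exonic or intronic was not determined.

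Fewer star strands were detected in M1 macrophages than in aortas. The macrophage cultures had 80, 75 and 67 of the 97 star strands at Ct 35 or earlier, and the aortas had 91, 87, 89 and 86. The groups did not overlap, at 74.0 ± 6.56 in macrophages and 88.25 ± 2.22 in aortas (SD, n = 3 and 4). The assays without an asterisk moved the same way, with 63.6% to 70.8% detected in macrophages and 78.9% to 87.0% in aortas. Ct was also later overall in macrophages: the mean over the 296 miRNAs detected in all 7 samples was 25.39, 25.45 and 27.77 in macrophages and 23.49, 24.71, 22.62 and 23.43 in aortas. The part of this difference in the counts of detected star strands was not tested. In bulk samples such as these, fewer cells of a type and less RNA per cell cannot be told apart. Myeloid and smooth muscle markers followed the labels, although the Ct ranges of miR-223 overlapped. Myeloid miR-223 crossed at Ct 15.99 to 19.01 in macrophages and 18.70 to 19.78 in aortas, while smooth muscle miR-143 crossed at 29.15 to 31.06 in macrophages and 11.98 to 14.32 in aortas. The aortas also held red blood cell miR-451 (Ct 32.16 to 33.96 in macrophages and 19.10 to 21.13 in aortas) and lymphocyte miR-150 (26.94 to 28.94 in macrophages and 16.24 to 20.43 in aortas). Fat miR-193b crossed at 27.77 to 28.97 in macrophages and 14.86 to 15.90 in aortas. The neural markers split: miR-124 crossed at 9.10, 20.14 and 22.51 in macrophages and 20.7 to 26.1 in aortas. The 9.10 was the well of macrophage 1 alone, far from the other cultures, and miR-124* was listed at Ct 40 in all 7 samples. Neural miR-9 crossed at 28.50 to 29.97 in macrophages and 22.97 to 25.32 in aortas. The part of these other cell types in the results below was not tested.

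Of the 97 star strands, 64 were detected in all 7 samples and 3 in none (miR-124*, miR-302b* and miR-374*). A further 8 (8.25%) were detected in all 4 aortas but 0 of the 3 macrophage cultures, against 9.28% of all 517 miRNAs, and 0 were detected in every macrophage culture and no aorta. The other 22 were detected in part of the samples. A share of 13.7% of star-strand wells were listed at Ct 40, the value of wells that did not cross.

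The strand gap was taken as star Ct minus main Ct in the same sample, in cycles. It needs no scaling between samples if both assays of a pair were run alike in every sample, which the sources do not say. On that condition, a wider gap means relatively less star strand. An offset between runs of the 2 assays could not be examined. Its absolute size also holds the efficiencies of 2 different assays, which were not measured, so only its difference between groups is tested. For the same reason, the order in which the 2 strands crossed is given below as a description. It does not tell which strand was more abundant. The gap was tested for the 53 hairpins with both strands detected in all 7 samples. None of the 12 pairs of the imprinted cluster met that condition, so these 53 are also the whole background.

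The gap was wider in M1 macrophages for 23 of 53 hairpins (43.4%), narrower for 9 (17%) and did not pass for 21 (so 60.4% differed in either direction), with a median difference of 0.92 cycles (limma, Benjamini-Hochberg adjusted p under 0.05). The gaps of the groups did not overlap for 31 hairpins (58.5%), of which 23 were wider and 8 narrower in macrophages. These 8 include miR-130b, whose gap did not pass (adjusted p = 0.162), while the miR-10a and miR-193 gaps passed with overlap. The median gap per sample was 3.86, 4.17 and 4.23 cycles in macrophages and 2.79, 2.93, 2.69 and 2.75 cycles in aortas, with every macrophage culture above every aorta. Ct was later overall in macrophages, as given above, and its part in the wider gaps was not tested; macrophage 3, with the latest Ct, had a median gap of 4.23 cycles beside 3.86 and 4.17 in the other macrophage cultures. Measured from each sample's own median gap, which takes 1.3 cycles off every difference, 10 hairpins were wider and 12 narrower, with 10 of the 23 wider and 9 of the 9 narrower gaps above among them. Without macrophage 1 the count of narrower gaps was 4.

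**Figure D1:**
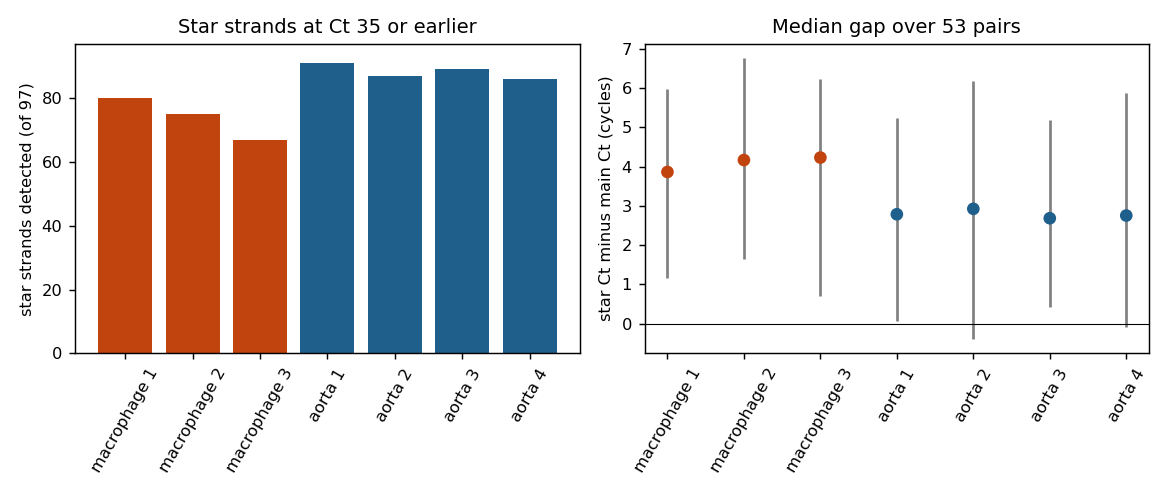
Star strands detected at Ct 35 or earlier in each sample (left, of 97) and the median strand gap over 53 hairpins in cycles with its quartiles as bars (right), for 3 M1 macrophage cultures and 4 aortas. The macrophages have 67 to 80 star strands and median gaps of 3.86 to 4.23 cycles, and the aortas have 86 to 91 and 2.69 to 2.93.

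The let-7 hairpins, whose main strands mark differentiated cells and restrain growth genes, all had wider gaps in M1 macrophages among the 6 tested. Their median difference was 2.78 cycles, against 0.92 over all 53 hairpins. The let-7a gap was 8.88, 7.60 and 6.50 cycles in macrophages and 2.30, 1.38, 2.17 and 3.07 in aortas, without overlap. Its difference was 5.43 ± 0.65 cycles (SE, adjusted p = 0.000184), and 4.82 cycles without macrophage 1. The let-7b gap was 8.42, 7.12 and 8.34 cycles in macrophages and 3.25, 2.62, 4.01 and 4.44 in aortas. It differed by 4.38 ± 0.59 cycles (adjusted p = 0.000307), again without overlap. In scaled log2 level, let-7b* was lower in macrophages at -4.32 beside a let-7b difference of 0.06 (adjusted p = 0.925). let-7a* was lower at -2.23 and let-7a higher at 3.20, with the let-7a* call lost without macrophage 1 or 2 (adjusted p of 0.0717 and 0.0621).

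The other let-7 gaps were wider by 2.76 ± 0.48 cycles (let-7f), 2.80 ± 0.80 (let-7g), 2.69 ± 0.71 (let-7i) and 2.58 ± 0.61 (let-7d), with no overlap of the groups. The let-7g difference was 3.57 without aorta 2 and missed the threshold without macrophage 1 (adjusted p = 0.0579). From each sample's own median gap, let-7a, let-7b and let-7f remained wider, and the others had an adjusted p of 0.143. The scaled level of let-7c-1*, which has no main strand partner here, was -1.78 with an adjusted p of 0.187.

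The miR-30 family, abundant in heart and vessel tissue, had wider gaps for miR-30a and miR-30e and a narrower one for miR-30b. The miR-30a gap was 4.21, 4.39 and 3.06 cycles in M1 macrophages and -1.12, -1.11, -0.85 and -0.58 in aortas. The star strand thus crossed before the main strand in every aorta and after it in every macrophage culture. The difference was 4.80 ± 0.50 cycles (adjusted p = 7.259e-05). The miR-30e gap did the same, at 1.57, 1.69 and 0.71 cycles in macrophages and -1.53, -1.34, -0.86 and -0.36 in aortas, a difference of 2.35 ± 0.50 (adjusted p = 0.00438, and 0.143 from the sample's own median gap). miR-28 was the only other hairpin with this change of order, at 0.15, 0.03 and 0.86 cycles in macrophages and -1.46, -1.41, -1.07 and -0.93 in aortas, a difference of 1.56 ± 0.46 (adjusted p = 0.0148, and 0.681 from the sample's own median gap). The miR-30b gap went the other way, at 8.28, 9.44 and 10.51 cycles in macrophages and 11.70, 13.97, 11.54 and 11.18 in aortas, narrower by 2.69 ± 0.78 cycles (adjusted p = 0.0148). The difference was -2.06 without aorta 2 and missed the threshold without macrophage 1 (adjusted p = 0.0656).

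**Figure D2:**
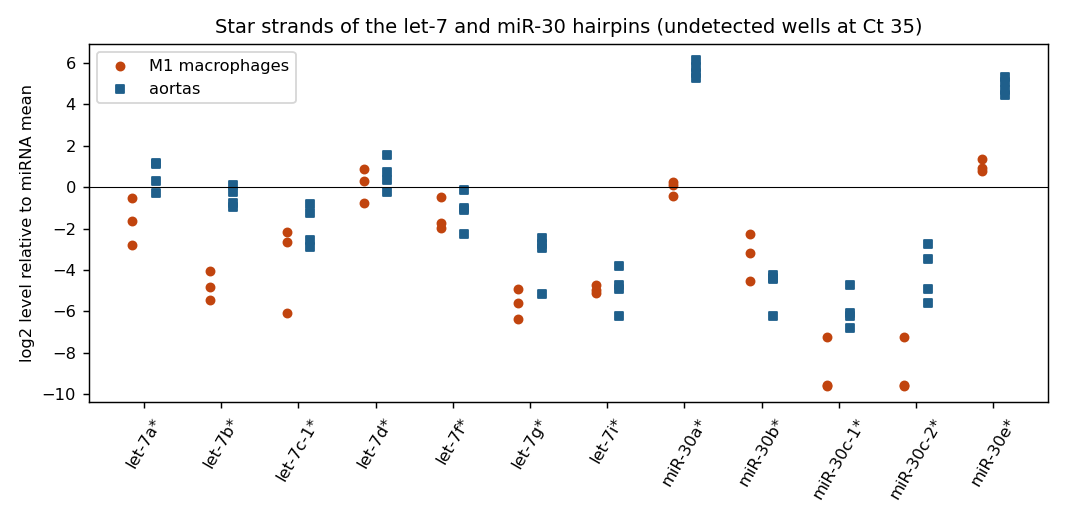
Scaled log2 level of the star strands of the let-7 and miR-30 hairpins in each sample, with M1 macrophages in orange left of the aortas in blue and undetected wells at Ct 35. The miR-30a* and miR-30e* points of the macrophages lie below all those of the aortas, while let-7d*, let-7f* and let-7i* overlap.

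The linked miR-322 and miR-503 hairpins, of the miR-15/16 family that restrains the cell cycle, both had wider gaps in M1 macrophages. The miR-503 gap was 2.77, 4.20 and 4.23 cycles in macrophages and -2.17, -5.93, 0.43 and -0.61 in aortas. Its difference was 5.80 ± 1.29 cycles (adjusted p = 0.00507), 4.52 without aorta 2 and 6.64 without aorta 3. The miR-322 gap was 4.33, 5.81 and 4.63 cycles in macrophages and 0.61, 0.56, 1.15 and 0.99 in aortas, a difference of 4.10 ± 0.51 (adjusted p = 0.000184). Both sets of groups were apart, with the miR-503 gap widely scattered among the aortas. The main strand miR-503 crossed at Ct 32.64 in aorta 2 and at 24.23 to 27.17 in the other aortas. With the limit at Ct 32 the miR-503 pair did not enter the test.

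For miR-7a and miR-877 the star strand crossed first in all 7 samples, and by less in M1 macrophages. The miR-7a gap was -2.13, -2.35 and -2.19 cycles in macrophages and -7.48, -8.54, -8.01 and -7.75 in aortas. It differed by 5.72 ± 0.46 cycles (adjusted p = 1.466e-05). The difference in star level was -0.13 (adjusted p = 0.815), and the main strand was higher by 5.59 on the log2 scale (adjusted p = 5.475e-05). The main strand comes from 2 hairpins and the star strand from 1, so the miR-7a gap need not be a single hairpin's strand ratio. For miR-877, within the span of Abcf1, the gap was -2.89, -2.96 and -1.33 cycles in macrophages and -5.12, -6.34, -7.22 and -6.10 in aortas, a difference of 3.8 ± 0.64 (adjusted p = 0.00107). In all, the star strand crossed first in all 7 samples for 7 hairpins (miR-7a, miR-877, miR-467a, miR-330, miR-34c, miR-183 and miR-674) and after the main strand in all 7 for 36. Among these 7, miR-674 was also wider at 1.36 ± 0.47 cycles, a call lost when macrophage 1 or 2 or aorta 1, 2 or 3 was left out (adjusted p of 0.068 to 0.0891). The miR-467a, miR-330, miR-34c and miR-183 differences were 1.43, 1.16, 0.21 and 0.92 cycles and did not pass. That of miR-467a passed without macrophage 2 (1.86 cycles) and without aorta 3 (1.71 cycles).

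Further gaps that were wider and kept their call under every alternative tried were those of miR-29c, which targets collagen transcripts, and miR-425. The miR-29c gap was 6.70, 6.77 and 6.21 cycles in M1 macrophages and 2.99, 3.35, 2.69 and 4.31 in aortas, a difference of 3.23 ± 0.52 (adjusted p = 0.000899). That of miR-425 differed by 2.84 ± 0.54 cycles (adjusted p = 0.00229). The other hairpins that passed and are not named elsewhere, miR-744, miR-872, miR-99b and miR-101a, were wider by 2.20, 2.13, 1.90 and 1.77 cycles. Measured from each sample's own median gap, none of these 4 passed (adjusted p of 0.218 to 0.538), while miR-29c and miR-425 did. The miR-101a call was lost without macrophage 1 (adjusted p = 0.0649).

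Of the 9 narrower gaps, that of miR-150, a lymphocyte miRNA, differed most. It was 3.00, 1.89 and 2.26 cycles in macrophages and 7.44, 7.63, 11.44 and 10.04 in aortas, narrower by 6.75 ± 0.94 cycles (adjusted p = 0.000321), with a difference of -5.99 without aorta 3. The groups were apart. The star level differed by 0.08, and the main strand was lower at -6.67 on the log2 scale (adjusted p = 0.000187). The miR-378 gap was 4.68, 4.50 and 4.78 cycles in macrophages and 8.01, 7.90, 6.52 and 6.87 in aortas, narrower by 2.67 ± 0.52 (adjusted p = 0.00244). These 2 narrower gaps passed under every alternative tried.

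The other narrower gaps were less steady. The miR-17 gap was 4.84, 5.19 and 6.24 cycles in M1 macrophages and 7.65, 10.01, 6.60 and 8.15 in aortas, narrower by 2.68 ± 0.78 (adjusted p = 0.0148), at -2.04 without aorta 2, and not past the threshold without macrophage 1 (adjusted p = 0.0607). The miR-16 gap, whose star strand comes from a hairpin in Dleu2, was narrower by 1.95 ± 0.52 cycles (adjusted p = 0.0108). It kept its call whichever sample was left out. The miR-193 gap was narrower by 2.77 ± 1.01 (adjusted p = 0.0388), with overlap between the groups, and its difference was -1.64 without macrophage 1 (adjusted p = 0.161) and -3.70 without macrophage 2. It also lost its call without macrophage 3, aorta 1 or aorta 2. The miR-186, miR-10a and miR-29a gaps were narrower by 1.89, 1.55 and 1.43 cycles, with overlap between the groups for miR-10a. The miR-186 call was lost without macrophage 1, 2 or 3 or aorta 3 or 4, the miR-10a call without macrophage 1, 2 or 3 or aorta 2, 3 or 4, and the miR-29a call without macrophage 1 or 3 or aorta 1, 2 or 3.

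**Figure D3:**
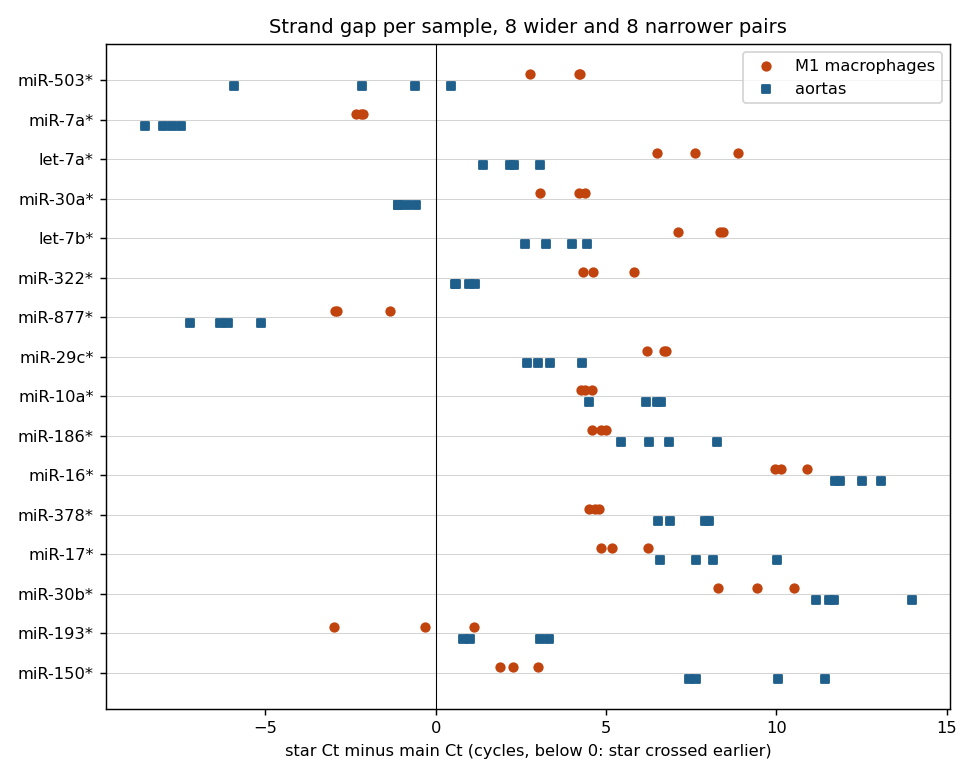
Star Ct minus main Ct in cycles for each sample, M1 macrophages as orange circles above the aortas as blue squares, for the 8 wider (upper) and 8 narrower (lower) hairpins with the largest differences. Below 0 the star strand crossed earlier, as for miR-30a in the 4 aortas and for miR-7a and miR-877 in all 7 samples.

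Before centring, the gap difference was small for a further 5 hairpins. miR-31* was lower in M1 macrophages at -7.46 on the log2 scale, and miR-31 at -7.57. Its gap was 1.22, 0.34 and 0.05 cycles in macrophages and 0.40, 0.78, 0.50 and 0.90 in aortas, a difference of -0.11 with a 95% confidence interval of -1.17 to 0.96. The miR-214 strands, within the span of the noncoding gene Dnm3os, were lower at -7.70 (star) and -8.06 (main), with a gap difference of -0.36 (interval -1.96 to 1.25). The gap differences of miR-22 and miR-27a were 0.06 (-0.92 to 1.04) and -0.13 (-1.62 to 1.37), and neither miR-27a strand passed in level (0.88 and adjusted p = 0.127 for the star, 0.75 and adjusted p = 0.293 for the main). For miR-21, the inflammation-induced miRNA of macrophages, both strands were higher, by 3.60 (star) and 4.26 (main), and the gap difference was 0.66 (-0.57 to 1.89). None of these 5 gap differences passed. Measured from each sample's own median gap they were -1.41 (miR-31), -1.66 (miR-214), -1.24 (miR-22), -1.43 (miR-27a) and -0.64 (miR-21). None of these passed either (adjusted p of 0.0536 to 0.36), so their small size depends on not centring.

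**Figure D4:**
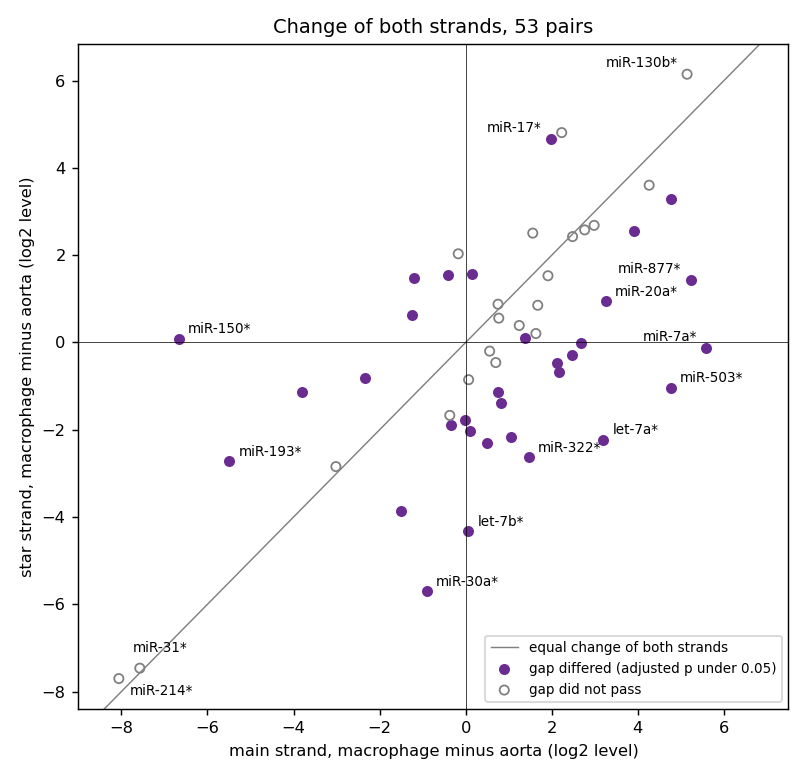
Difference in scaled log2 level, M1 macrophage minus aorta, of the main strand (x) and star strand (y) for 53 hairpins, with the line of equal change. Filled points passed the test of the gap. miR-31* and miR-214* lie by the line at star differences of -7.46 and -7.70, miR-7a* and miR-503* lie far to the right of it, and miR-150* lies far to its left.

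Neighbouring hairpins did not all share a direction. Of the tested hairpins, 16 lay in 7 genomic clusters with neighbours within 10000 bases. The main strands of let-7f, miR-16 and miR-29b and the let-7a star sequence each come from 2 hairpins. Their gaps may therefore not be those of the clustered hairpin alone. The let-7a-1, let-7f-1 and let-7d cluster on chromosome 13 had 3 of 3 gaps wider, and the miR-322 and miR-503 cluster on X had both. In the miR-17-92 cluster on chromosome 14, which drives proliferation, the miR-17 gap was narrower while those of miR-18a and miR-20a were wider, by 1.48 ± 0.57 (adjusted p = 0.0467) and 2.32 ± 0.61 (adjusted p = 0.0103). Measured from each sample's own median gap, neither miR-18a (0.18 cycles) nor miR-20a (1.02 cycles, adjusted p = 0.173) passed, while miR-17 did. The miR-20a difference was 1.72 without macrophage 3. The miR-18a call was lost without macrophage 2 or 3 or aorta 1, 3 or 4 (adjusted p of 0.0709 to 0.169). In the miR-15a and miR-16-1 pair the miR-15a difference was 0.86 (adjusted p = 0.176) beside the narrower miR-16 gap. In the Mcm7 cluster miR-93 was wider by 1.28 (adjusted p = 0.0471), a call lost without macrophage 1, 2 or 3 or aorta 1, 2 or 3 and from the sample's own median gap (adjusted p = 0.989), and miR-106b differed by 0.38 without passing. Beside the narrower miR-29a gap that of miR-29b differed by 0.19, and beside the wider miR-425 gap that of miR-191 differed by 0.76, neither past the threshold.

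**Figure D5:**
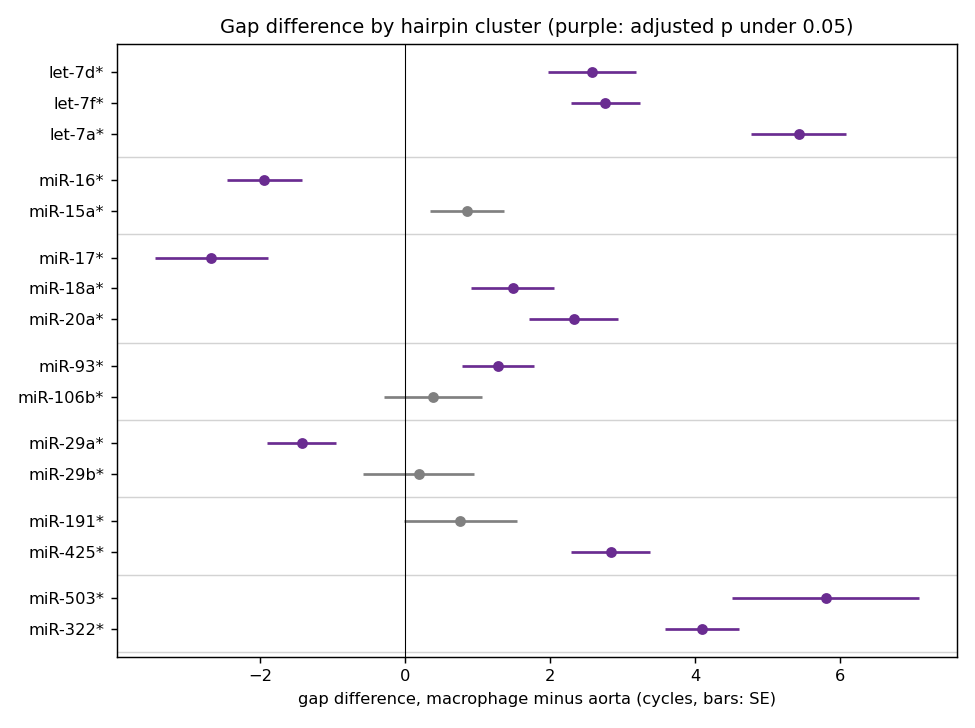
Gap difference, M1 macrophage minus aorta, in cycles with its SE for 16 star strands grouped by genomic cluster (grey lines part the clusters), with those past adjusted p under 0.05 in purple. The let-7 and the miR-322/miR-503 clusters lie right of 0, while miR-17* lies left of 0 and miR-18a* and miR-20a* right of it.

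The scaled level of a star strand was the mean Ct of the 296 miRNAs detected in all 7 samples minus its own Ct, a log2 scale if each cycle doubles the product. Of the 97 star strands, 88 were detected in at least 3 samples of a group and tested, and 9 were not. In M1 macrophages 15 of 88 were higher (17%, against 24.7% of all miRNAs tested), 29 were lower (33%, against 30.8%) and 44 did not pass, where 55.5% of all miRNAs tested differed in either direction. The median difference was -0.73 for star strands and -0.21 for all miRNAs tested. These counts include 1 higher and 12 lower star strands that entered the test through the group where they are high. Such entry favours a difference in that direction, so nothing is read from them. Of the 64 star strands detected in all 7 samples, 14 were higher (21.9%, against 32.1% of the 296 miRNAs detected in all 7), 17 were lower (26.6%, against 25%) and 33 did not pass. Their median difference was -0.17, beside 0.56 over the 296. The split over the 88 hung on the scaling: with the snoRNA135 and snoRNA202 pair it was 3 higher and 57 lower, with MammU6 it was 8 and 27, with the authors' deposited values it was 7 and 37, and after quantile normalization it was 24 and 25. These scalings moved the median over all miRNAs by -2.24, -0.66, -1.20 and 0.61. Of the calls, miR-130b*, miR-135a* and miR-17* (higher) and 11 of the 17 lower ones detected in all 7 samples held under all 4.

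Among the higher star strands detected in all 7 samples, miR-130b* had levels of 0.31, 0.48 and 0.10 in M1 macrophages and -6.22, -7.50, -5.03 and -4.66 in aortas. It was higher by 6.15 ± 0.72 (adjusted p = 0.000305), with its main strand higher by 5.14. The level of miR-135a* was 0.59, 0.68 and 2.11 in macrophages and -5.32, -7.21, -3.71 and -2.37 in aortas. It was higher by 5.78 ± 1.13 (adjusted p = 0.00409), by 4.90 without aorta 2 and by 6.53 without aorta 4. Its main strand miR-135a was listed at Ct 40, 32.64 and 31.98 in macrophages and at 29.28 to 30.7 in aortas, so its gap was not tested. miR-17* was higher by 4.66 ± 0.59 (adjusted p = 0.000459), with levels of 0.34, 0.51 and -0.19 in macrophages and -4.10, -5.77, -3.50 and -4.38 in aortas. These 3 star strands had no overlap between the groups. Others detected in all 7 samples and higher were miR-21* at 3.60 ± 0.54, miR-879* at 3.33 ± 0.60, miR-18a* at 3.29 ± 0.42 and miR-29b* at 2.58 ± 0.59. Their calls did not hold under the snoRNA scaling, where they were 1.36, 1.09, 1.05 and 0.34. The main strand miR-879 was listed at Ct 40 in every macrophage culture and at 33.41 to 35.03 in aortas. The miR-141* difference of 4.81 ± 1.33 (adjusted p = 0.0177) was 3.59 without aorta 3 and missed the threshold without macrophage 3 (adjusted p = 0.0602).

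Among star strands detected in all 7 samples, the lowest relative to aortas were miR-214*, miR-31* and miR-30a*. miR-214* had levels of -3.44, -5.20 and -2.43 in M1 macrophages and 3.77, 3.60, 4.24 and 4.43 in aortas (adjusted p = 9.584e-05), with a difference of -7.70, or -6.92 without macrophage 2. miR-31* had levels of -3.44, -5.43 and -4.25 in macrophages and 3.28, 3.01, 3.14 and 2.93 in aortas (adjusted p = 4.089e-05). miR-30a* had 0.24, -0.42 and 0.11 in macrophages and 5.81, 6.13, 5.51 and 5.26 in aortas, lower by 5.70 ± 0.40 (adjusted p = 4.089e-05). All 3 were apart between the groups. miR-30e* was lower by 3.86 ± 0.40, let-7b* by 4.32 ± 0.50 and miR-455*, of a cartilage hairpin, by 4.58 ± 0.78 (differences of -5.42 without macrophage 1 and -3.64 without macrophage 3). miR-193* was lower by 2.72 ± 0.64, with a difference of -2.03 without macrophage 2. The miR-9* difference of -2.84 lost its call without macrophage 1 or 2 (adjusted p of 0.0639 and 0.0678) and was -3.63 without macrophage 3.

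The 8 star strands detected in every aorta and no macrophage culture were miR-30c-2*, miR-148a*, miR-30c-1*, miR-145*, miR-467e*, miR-200c*, miR-133a* and miR-218-2*. They entered the test through the aortas alone, so no test is given. With macrophage wells set to Ct 35, miR-30c-2* was at least 24.6-fold lower, miR-148a* at least 10.2-fold, miR-30c-1* at least 7.12-fold and miR-145*, of the smooth muscle hairpin, at least 6.77-fold. The floor moves these sizes: without macrophage 3 the log2 differences were -5.31, -4.04, -3.52 and -3.44, and with the limit at Ct 32 they were -1.91, -0.65, -0.12 and -0.049. After quantile normalization that of miR-145* was -2.17.

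By hairpin family, counts are given over the star strands detected in all 7 samples. Of 7 let-7 star strands, 0 were higher and 3 lower (let-7b*, let-7a* and let-7g*, median -1.78). The let-7g* call was lost without macrophage 1 or 3 or aorta 1, 3 or 4. The let-7g* difference of -2.30 was -2.94 without aorta 2. Of 3 such miR-30 star strands, 0 were higher and 2 lower (miR-30a* and miR-30e*, median -3.86), and the other 2 tested are miR-30c-1* and miR-30c-2* above. In the miR-17-92 group and its paralogues, 2 of 5 were higher (miR-17* and miR-18a*) and 0 lower (median 1.53). Another 2 of this group entered the test through 1 group alone, so their differences are given with no test. miR-19a*, detected in 1 of 4 aortas, differed by 4.61, and by 6.01 without macrophage 1 and 3.60 without macrophage 3. miR-20b*, detected in 1 of 3 macrophage cultures, differed by -4.07, and by -3.26 without macrophage 2, -3.33 without aorta 1 and -2.19 with the limit at Ct 32.

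Of 10 star strands of smooth muscle and vessel hairpins, 5 were detected in all 7 samples and 0 of these passed. Again with no test, miR-10b* (detected in 2 of 3 macrophage cultures) differed by -4.72, and miR-218-1* (in 1 of 3) by -4.58, or -3.74 without macrophage 2 and -2.74 with the limit at Ct 32. Of 9 from mesenchymal hairpins, 3 were higher (miR-22*, miR-29a* and miR-29b*) and 4 lower (miR-193*, miR-214*, miR-29c* and miR-455*), with a median of -1.14. The higher ones hung on the scaling. miR-22* differed by 2.43 as reported, but by 0.19 with the snoRNA pair, 1.77 with MammU6 and 1.43 with the deposited values, none past the threshold, and by -0.21 unscaled. miR-29a* differed by 1.57, but by -0.67 with the snoRNA pair, 0.91 with MammU6, 0.58 with the deposited values and -1.07 unscaled, none past the threshold, and missed it with the replicate block (adjusted p = 0.0517). miR-199b*, detected in 2 of 3 macrophage cultures, differed by -6.06, or -5.23 without macrophage 2. Of 6 from immune hairpins, miR-21* and miR-146b* were higher and miR-9* lower (median 0.33). The miR-146b* difference of 2.51 lost its call without macrophage 1, aorta 3 or aorta 4 (adjusted p of 0.0584 to 0.103). In the miR-15/16 group 1 of 5 was higher and 1 lower (miR-16* and miR-322*, with miR-16* at -0.70 under the snoRNA scaling). miR-130b* was the only one of the miR-130 and miR-148 group detected in all 7. In the miR-200 and epithelial group 1 of 2 was higher (miR-141*), and in the miR-467 group 0 of 3 passed.

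The strands differed in sequence at their first base. RefSeq entries were found for 49 of the 53 tested star strands, and for both strands of 47. The main strand began with U in 30 of 47 and with A in 8, while the star strand began with C in 20, A in 13, U in 7 and G in 7. The star strand was the 3p arm for 38 hairpins, of which 21 had a wider and 5 a narrower gap in M1 macrophages (median 1.42 cycles), and the 5p arm for 11, of which 2 were wider and 2 narrower (median -0.13). The arms were not tested against each other.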

How the data were processed

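Total RNA of 3 M1 macrophage cultures and 4 aortas was assayed by quantitative PCR. The authors' deposited raw values are Ct, with wells that did not cross listed at 40. A second deposited table holds log2-type values: each equalled the Ct minus the sample's mean over MammU6 and snoRNA202 wells, with a largest departure of 5e-05, as read from the values. RNA was extracted with the mirVana kit, per the labels. Details of the PCR run are not given in the sources, and precision rests on the number of samples.

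Wells later than Ct 35 were set to 35 for levels, except in the authors' deposited values, which were taken as listed. Levels were scaled to the mean over the 296 miRNAs detected in all 7 samples. A miRNA was tested if detected in at least 3 samples of a group in it, and a gap if both strands were detected in all 7 (53). The comparison of macrophages with aortas used lmFit and eBayes of limma 3.58.1 under R 4.3.3, 2-sided, with group alone, with Benjamini-Hochberg adjustment over all miRNAs or gaps tested and a threshold of 0.05. The fit was tested on simulated data. Tables and figures used matplotlib 3.10.9, scipy 1.17.1, numpy 2.4.6 and pandas 2.3.3 under Python 3.11.15.

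Named star strands were the 8 largest level and gap differences in each direction among those past the threshold (levels: detected in all 7), up to 6 detected in 1 group alone, up to 8 whose star crossed first in every sample of a group, the 3 smallest gap differences, up to 3 of each hairpin list, and a fixed set with all let-7 stars. Others are named to account for a count. The members and lists were chosen with earlier results of these data known. Star names were matched to RefSeq arms (GRCm38.p6) by the standard renaming of older miRNA names. The deviations of same-numbered samples from their group means had r of 0.11, 0.008 and -0.074. They were taken on scaled levels, from which a shift common to a whole sample is already removed, so they cannot exclude pairing. The main fit did not pair samples by number. Other scalings, detection limits, filters, centring, a replicate block and leaving out each sample were tried.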

Additional observations from a re-analysis of the deposited data

Results flagged for a closer look

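In 2 of 73 sets of 4 aortas looked at, a single aorta lay far from the other 3, where chance alone picks out about 1 in 20 such sets. The scaled log2 level of miR-141* was -8.45 in aorta 3, against -3.83 to -3.26 in the other aortas. The level of miR-18a* was -3.43 in aorta 4, against -4.54 to -4.39 in the other aortas.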

How the results depend on the processing

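The scaling moved the star-strand level counts most. The count of higher star strands, 15 as reported, was 3 with snoRNA135 and snoRNA202, 8 with MammU6, 7 with the authors' deposited values, 24 after quantile normalization and 1 unscaled. The count of lower ones, 29 as reported, was 57 with the snoRNA pair, 53 unscaled and 18 over miRNAs detected in all 7 samples. Wider gaps numbered 10 in place of 23 when centred on each sample's median gap, and narrower gaps ranged over 4 to 8 with a sample left out, in place of 9. The mean number of star strands detected at Ct 32 was 67.0 in macrophages and 84.5 in aortas. The replicate block gave 20 wider and 7 narrower gaps and 11 higher and 26 lower levels. The cause of these changes was not tested.

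Some level differences changed sign. With the snoRNA pair, miR-16* was -0.70, miR-467b* -0.21 and miR-27a* -1.36. Unscaled, miR-29b* was -0.061, miR-146b* -0.13, miR-16* -1.10, miR-467b* -0.61 and miR-27a* -1.76. With the deposited values miR-27a* was -0.12. After quantile normalization miR-24-1* was 0.42, let-7d* 0.19, let-7f* 0.36 and let-7i* 1.76. At Ct 32 miR-200c* was 0.38, at Ct 38 let-7i* was 0.11, and with the replicate block let-7f* was 0.039. With a sample left out, miR-200a* ranged over -1.87 to 0.22, let-7f* over -0.66 to 0.029 and let-7i* over -0.45 to 0.34.

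Centred gap differences were -0.14 for miR-330, -1.09 for miR-34c, -0.38 for miR-183, -1.24 for miR-22 and -0.64 for miR-21. With a sample left out, gap differences ranged over -0.92 to 1.95 for miR-34c, -0.0827 to 0.15 for miR-22, -0.45 to 0.14 for miR-31, -0.85 to 0.49 for miR-27a and -1.03 to 0.31 for miR-214. The gaps of 8 wider and 2 narrower hairpins passed under every alternative.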

Other observations

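Of all star-strand wells, 3 crossed before Ct 15, and the next earliest crossed at Ct 17.11. They were those of miR-488* in aortas 2 and 4 and of miR-92a* in aorta 4, chosen after their values were seen. The scaled level of miR-488* was -2.95, -9.55 and -7.24 in M1 macrophages and -0.28, 18.55, -1.08 and 10.75 in aortas. The difference was -13.56, or -15.98 without aorta 1, -9.73 without aorta 2 and -16.25 without aorta 3, and no test is given because it entered the test through the aortas alone. miR-92a* was detected in 1 of 3 macrophage cultures and 2 of 4 aortas and was not tested.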
